A study of Arabidopsis thaliana with 12 samples.

Results

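IQD genes encode proteins of the IQ-domain family of Arabidopsis thaliana, and 15 of them were followed here in seedlings with reduced nitric oxide (NO). A gene entered the family where its symbol is IQD followed by a number and a probe set of the Affymetrix ATH1 array is listed with that gene alone. This gave 15 genes, with 1 probe set each, of the 33 IQD genes in the RefSeq gene table, and the whole array held 13356 genes listed alone on a probe set. Probe sets listed with several genes named no IQD. Some symbols are listed in lower case and are written in capitals here.

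An IQD protein carries IQ motifs, short helical segments that bind calmodulin, the small protein that changes shape when it takes up calcium. Many IQD proteins sit on microtubules, at the plasma membrane or in the nucleus, and they are thought of as scaffolds that bring calcium sensors to the cytoskeleton and so affect the shape of plant cells and the plane in which they divide. The founding member IQD1 raises glucosinolate levels, and a relative in tomato, SUN, sets the shape of the fruit. IQD genes other than those 15 were not analysed here.

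Col-0, the wild-type accession, was compared with the nitrate reductase double mutant nia1nia2, with noa1-2, and with the triple mutant nia1nia2noa1-2. NIA1 and NIA2 encode the nitrate reductases, enzymes that can also release NO, and NOA1 encodes a GTPase of the plastid that does not itself make NO, so noa1-2 seedlings have a plastid defect besides low NO. The mutations are present in every cell of the plants, and the labels name no treatment. Every sample was RNA of whole seedlings aged 15 days, described as past the transition to flowering, which grew on MS medium with 1% sucrose in days of 16 h light and nights of 8 h and were collected 5 h into the light period. Each genotype had 3 biological replicates on 3 arrays, numbered 1 to 3, or 2 to 4 in nia1nia2, which made 12 arrays. No probe set was listed with NIA1, NIA2 or NOA1 alone, so the mutated genes were not checked here.

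Median intensity ran from 76.1 to 86.8 over the 12 arrays. The nia1nia2 arrays spread more widely than the others. Their median SD over the 7034 genes tested was 0.26 on the log2 scale, against 0.12 in Col-0, 0.11 in noa1-2 and 0.12 in nia1nia2noa1-2. Over the 9 IQD genes tested the median SD was 0.24 in nia1nia2, 0.18 in nia1nia2noa1-2, 0.12 in noa1-2 and 0.05 in Col-0. In nia1nia2, replicate 4 gave the lowest value for 5 of the 9 IQD genes tested and replicate 3 the highest for 6. In noa1-2, replicate 2 was lowest for 7 of the 9 and replicate 3 was highest for 7. Over all genes tested these same arrays were lowest or highest in 30.7%, 32.8%, 33% and 38.4% of cases, in that order. Calls that rest on single arrays are named below with the gene concerned.

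Of 11 leaf markers listed, 2 were named on the array, LHCB4.1, an antenna protein of photosystem II, and RCA, which activates Rubisco. Both were bright on all arrays, with a mean log2 intensity of 13.59 and 13.86 in Col-0. Of 10 root markers, PYK10 and EXPA18 were tested, and neither was called against Col-0 in any mutant by the test below. The log2 fold change of EXPA18 was -0.24 in nia1nia2, -0.70 in noa1-2 and -0.44 in nia1nia2noa1-2, each with an SE of 0.25. That of PYK10 was 0.20, 0.09 and 0.13 in the same order, each with an SE of 0.14. Changes of the size seen in EXPA18 were not resolved. None of the 5 flower bud markers was named on the array.

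Of the 15 IQD genes, 9 were tested because their mean reached 6 on the log2 scale in 1 genotype or more, the level below which signal and noise are hard to separate on these arrays. They were IQD19, IQD21, IQD22, IQD23, IQD24, IQD28, IQD30, IQD31 and IQD32. Of these, 8 stood above 6 in every genotype. IQD19 passed only through Col-0, where its mean was 6.20, so a difference from Col-0 was built into its entry. The remaining 6, IQD15, IQD16, IQD18, IQD26, IQD27 and IQD33, lay under 6 in every genotype. Intensities of different probe sets were not set against each other, since each probe set has its own response. A gene is called changed where limma, fitted to all 12 arrays, gave an adjusted p under 0.05 over the 7034 genes. Levels are mean log2 intensities ± SD over 3 arrays.

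No IQD gene was called higher than Col-0 in any mutant, and 6 of the 9 tested were called lower in at least 1. IQD19, which had a difference from Col-0 built into its entry, was 1 of the 6. Among all genes tested, 30% were lower than Col-0 in at least 1 mutant and 21.9% were higher. IQD28 and IQD30 were called in both mutants that lack nitrate reductase, IQD22 in both mutants that carry noa1-2, IQD19 and IQD21 in nia1nia2, and IQD32 in nia1nia2noa1-2. None was called in all 3 mutants, against 1.54% of all genes lower in all 3. The mutants were compared with the same Col-0 arrays, so these comparisons are not independent. A call in 1 mutant and none in another is not a difference between them. Compared directly, nia1nia2 and noa1-2 differed by the test in IQD22 and IQD28, beside 17.2% of all genes higher and 25.8% lower in nia1nia2. In RNA of whole seedlings, fewer cells of a type and less RNA per cell cannot be told apart.

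**Figure D1:**
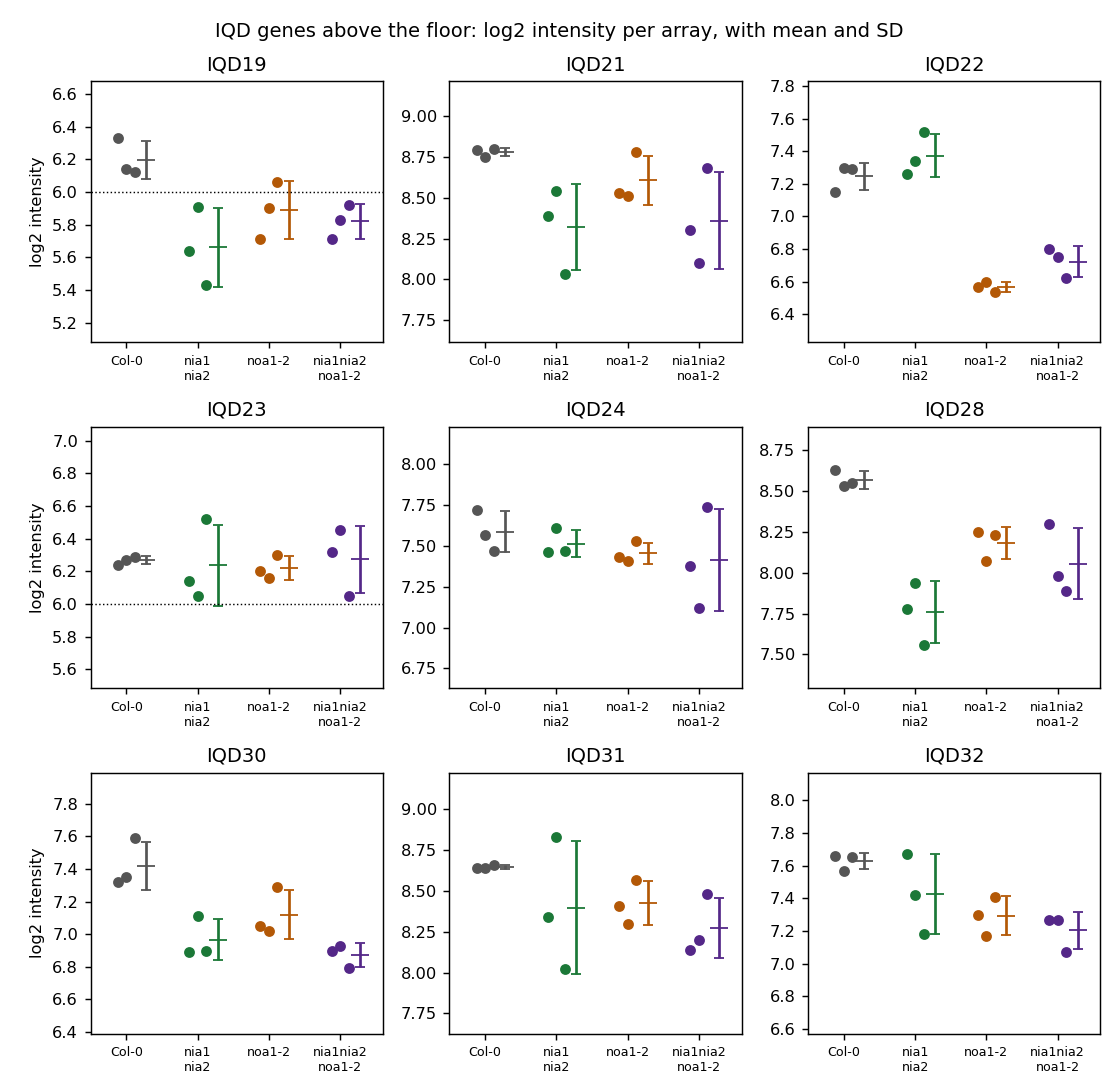
Log2 intensity of the 9 IQD genes tested, 1 point per array, with the mean and SD of 3 arrays beside the points, for Col-0, nia1nia2, noa1-2 and nia1nia2noa1-2; each panel has its own axis, and the dotted line is the floor of 6. IQD22 splits into a higher pair, Col-0 and nia1nia2, and a lower pair, noa1-2 and nia1nia2noa1-2, while IQD28 lies highest in Col-0 and lowest in nia1nia2.

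IQD22 (AT4G23060), reported as an early target of the DELLA proteins that repress gibberellin signalling, followed the noa1-2 mutation. On the Col-0 arrays it read 7.15, 7.30 and 7.29, and on the nia1nia2 arrays 7.26, 7.34 and 7.52. It read 6.57, 6.60 and 6.54 in noa1-2 and 6.80, 6.75 and 6.62 in nia1nia2noa1-2. Every array with the noa1-2 mutation lay below every array without it. The level was 7.25 ± 0.08 in Col-0 and 6.57 ± 0.03 in noa1-2, a log2 fold change of -0.68 (SE 0.11, limma adjusted p = 0.0022), or 1.60-fold lower. In nia1nia2noa1-2, at 6.72 ± 0.09, it fell by 0.52 (SE 0.11, limma adjusted p = 0.0040), or 1.44-fold.

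Loss of the nitrate reductases alone did not move IQD22 beyond its spread. Its level in nia1nia2 was 7.37 ± 0.13, a difference of 0.13 from Col-0 with a 95% interval of -0.10 to 0.36 (limma adjusted p = 0.36). Compared directly, nia1nia2 was 0.80 above noa1-2 on the log2 scale (SE 0.11, limma adjusted p = 6.6e-05), and nia1nia2noa1-2 was 0.65 below nia1nia2 (log2 fold change -0.65, SE 0.11, limma adjusted p = 0.0035). In that last comparison 5.19% of all genes were called lower and 15.2% in either direction, and IQD22 was the single IQD gene called. This call was lost when limma was fitted to the 6 arrays compared (adjusted p = 0.063), where 0.569% of all genes were called lower. The 3 nia1nia2noa1-2 arrays all lay above the 3 noa1-2 arrays, but the difference of 0.15 did not pass the test (limma adjusted p = 0.38). In order of level the genotypes ran nia1nia2, Col-0, nia1nia2noa1-2 and noa1-2, with the first pair and the last pair each not differing by the test.

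IQD28 (AT1G14380) had the largest difference from Col-0 among the IQD genes tested, in nia1nia2. Its values were 8.63, 8.53 and 8.55 in Col-0 and 7.78, 7.94 and 7.56 in nia1nia2. In noa1-2 they were 8.25, 8.07 and 8.23, and in nia1nia2noa1-2 8.30, 7.98 and 7.89. All mutant arrays lay below all Col-0 arrays, and the nia1nia2 arrays lay lowest apart from an overlap with nia1nia2noa1-2 replicate 3. The mean of 7.76 ± 0.19 in nia1nia2 was 1.75-fold below the 8.57 ± 0.05 of Col-0 (log2 fold change -0.81, SE 0.13, limma adjusted p = 0.00040).

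In nia1nia2noa1-2, IQD28 fell less far, to 8.06 ± 0.22 (log2 fold change -0.51, SE 0.13, limma adjusted p = 0.015). That call did not survive leaving out Col-0 replicate 1 (adjusted p = 0.058), nia1nia2noa1-2 replicate 2 (0.068) or its replicate 3 (0.062). In noa1-2 the level was 8.18 ± 0.10, and the difference of -0.39 (SE 0.13) had an adjusted p of 0.092 in limma, with all noa1-2 arrays below Col-0. The direct comparison put nia1nia2 below noa1-2 by a log2 fold change of -0.42 (SE 0.13, limma adjusted p = 0.020) beside 25.8% of all genes lower and 17.2% higher. Without nia1nia2 replicate 4, noa1-2 replicate 1 or noa1-2 replicate 3, that adjusted p was 0.053, 0.071 and 0.060, so IQD22 was then the single IQD gene called between the 2 mutants.

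IQD30 (AT1G18840) was called lower than Col-0 in both mutants without nitrate reductase. It read 7.32, 7.35 and 7.59 on the Col-0 arrays. Values were 6.89, 7.11 and 6.90 in nia1nia2 and 6.90, 6.93 and 6.79 in nia1nia2noa1-2, and 7.05, 7.02 and 7.29 in noa1-2. No array of any mutant reached the lowest Col-0 array. The level of 7.42 ± 0.15 in Col-0 compared with 6.87 ± 0.07 in nia1nia2noa1-2 (log2 fold change -0.55, SE 0.12, limma adjusted p = 0.0065) and with 6.97 ± 0.12 in nia1nia2 (-0.45, SE 0.12, adjusted p = 0.0086). With array weights, which let each genotype have its own spread, the nia1nia2 call was lost (adjusted p = 0.062). It was also lost by the methods' t-test after adjustment (0.075). In noa1-2, at 7.12 ± 0.15, the log2 fold change was -0.30 (SE 0.12, limma adjusted p = 0.15). With array weights IQD30 was called lower in noa1-2 (adjusted p = 0.039), beside 12.3% of all genes lower. Compared directly, nia1nia2 and noa1-2 did not differ by the test (log2 fold change -0.15, limma adjusted p = 0.33). The 3 nia1nia2noa1-2 arrays lay below the 3 noa1-2 arrays by a mean of 0.25 on the log2 scale, which did not pass the test (log2 fold change -0.25, limma adjusted p = 0.19).

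IQD32 (AT1G19870) was called in nia1nia2noa1-2, where it read 7.27, 7.27 and 7.07 against 7.66, 7.57 and 7.65 in Col-0. In noa1-2 it read 7.30, 7.17 and 7.41, and in nia1nia2 7.67, 7.42 and 7.18. The nia1nia2noa1-2 and noa1-2 arrays all lay below Col-0, whereas nia1nia2 spread from above the highest Col-0 array down into the range of the other mutants. Against Col-0 the log2 fold change was -0.33 in noa1-2 (limma adjusted p = 0.14) and -0.20 in nia1nia2 (adjusted p = 0.23). Compared directly, nia1nia2noa1-2 and noa1-2 did not differ by the test (-0.09, limma adjusted p = 0.70). The fall in nia1nia2noa1-2 was -0.42 (SE 0.13, limma adjusted p = 0.034). It was the least stable of the calls in that mutant. The adjusted p became 0.10, 0.067 and 0.092 without Col-0 replicates 1, 2 and 3, it became 0.067, 0.074 and 0.12 without nia1nia2noa1-2 replicates 1, 2 and 3, and it was 0.050 without noa1-2 replicate 1.

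IQD19 (AT4G14750) and IQD21 (AT3G49260) were called against Col-0 in nia1nia2, and neither passed the threshold between mutants. IQD19 read 6.33, 6.14 and 6.12 in Col-0 and 5.64, 5.91 and 5.43 in nia1nia2, then 5.71, 5.90 and 6.06 in noa1-2 and 5.71, 5.83 and 5.92 in nia1nia2noa1-2. All mutant arrays were below Col-0, and the mutants overlapped one another. Its log2 fold change in nia1nia2 was -0.54 (SE 0.14, limma adjusted p = 0.0075), between measured signals of which the lower is under the floor. The same difference was -0.31 in noa1-2 (adjusted p = 0.20) and -0.38 in nia1nia2noa1-2 (adjusted p = 0.070). IQD19 was tested only because of its Col-0 mean, so these differences from Col-0 are not counted as evidence of a fall. Between mutants the smallest adjusted p for IQD19 was 0.20, for nia1nia2 against noa1-2.

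IQD21 read 8.79, 8.75 and 8.80 in Col-0. In nia1nia2 it read 8.39, 8.54 and 8.03, in noa1-2 8.53, 8.51 and 8.78, and in nia1nia2noa1-2 8.30, 8.10 and 8.68. The nia1nia2 and nia1nia2noa1-2 arrays all lay below Col-0, and noa1-2 replicate 3 overlapped with it. The change in nia1nia2 was -0.46 (SE 0.16, limma adjusted p = 0.035). It was lost without any 1 of the Col-0 arrays (adjusted p = 0.081, 0.069 and 0.085 for replicates 1, 2 and 3), without nia1nia2 replicate 4 (0.11), with each array centred on its median (0.11), on the 6 arrays compared (0.064), with array weights (0.13), with the replicate block (0.057) and by the methods' t-test after adjustment (0.12). The log2 fold change of -0.42 in nia1nia2noa1-2 had an adjusted p of 0.080 in limma. Between mutants IQD21 differed by -0.29 for nia1nia2 against noa1-2 (adjusted p = 0.17) and by 0.04 for nia1nia2noa1-2 against nia1nia2 (adjusted p = 0.89).

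**Figure D2:**
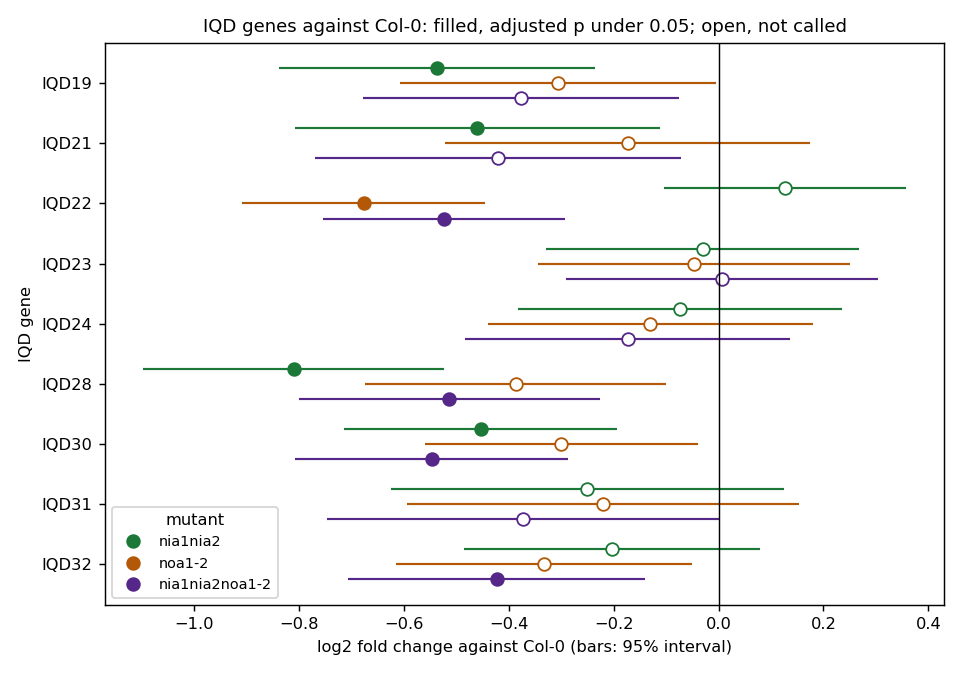
Log2 fold change against Col-0 of the 9 IQD genes tested, in nia1nia2 (green), noa1-2 (orange) and nia1nia2noa1-2 (purple), with 95% intervals from limma; filled points have an adjusted p under 0.05. The 9 filled points lie between -0.81 and -0.42, and all open points but IQD22 in nia1nia2 and IQD23 in nia1nia2noa1-2 lie on the same side of zero.

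IQD31 (AT1G74690), IQD24 (AT5G07240) and IQD23 (AT5G62070) were not called in any comparison. IQD31 read 8.64, 8.64 and 8.66 in Col-0 and 8.14, 8.20 and 8.48 in nia1nia2noa1-2, so those groups did not overlap, yet the log2 fold change of -0.37 (SE 0.17) had an adjusted p of 0.14 in limma. In nia1nia2 it ranged from 8.02 to 8.83, the widest range of the 9 genes tested in any genotype, with an SD of 0.41. IQD24 differed from Col-0 by -0.07 to -0.17 and IQD23 by -0.05 to 0.01 over the mutants, with arrays that overlapped Col-0 in each. The 95% intervals for IQD23 reached from -0.34 at the lowest to 0.30 at the highest, so changes of that size were not resolved.

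In nia1nia2noa1-2, 4 of the 9 IQD genes tested were called lower (44.4%), beside 11.3% of all genes tested, and none was called higher, beside 10.6% of all genes. The median log2 fold change of the 9 was -0.42, beside -0.03 over all genes. In 7 of the 9 the mutant arrays all lay below the Col-0 arrays, beside 26.2% of all genes. IQD19, with a difference from Col-0 built into its entry, was among these 7. Of the 8 genes above the floor in every genotype, 4 were called lower. The share over all genes above the floor in every genotype was not counted. The count of calls among the 9 changed with the arrays and settings used, and the cause was not tested. All arrays, those of nia1nia2 among them, enter the common estimate of spread. On the 6 arrays compared, 7 of the 9 were called lower, beside 18.7% of all genes, and IQD19 (adjusted p = 0.016), IQD21 (0.037) and IQD31 were the ones added. The count was 7 also without nia1nia2 replicate 4, and it was 2, IQD22 and IQD30, without Col-0 replicate 1 or without nia1nia2noa1-2 replicate 2. The share of all genes was not counted with an array left out.

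In nia1nia2, 4 of the 9 were again called lower, beside 26.6% of all genes, and none higher, beside 16.4%. A median of -0.25 stood beside -0.10 over all genes. Of the 8 genes above the floor in every genotype, 3 were lower, again with no matching share counted over all genes. Changes over all genes were shifted downwards in this mutant. With each array centred on its median, 20.5% of all genes were lower and the IQD median was -0.15. The arrays of nia1nia2 lay wholly below Col-0 in 4 IQD genes, IQD19 among them, beside 29% of all genes.

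In noa1-2, IQD22 was the single IQD gene called lower, beside 4.08% of all genes, and none was called higher, beside 5% of all genes. All 9 log2 fold changes were below zero, with a median of -0.30 beside -0.03 over all genes, of which 54.4% were below zero. In 6 of the 9 the noa1-2 arrays all lay below Col-0, beside 21.2% of all genes. IQD19, with a difference from Col-0 built into its entry, was among these 6 and is part of the median. On the 6 arrays compared, IQD28 (adjusted p = 0.013) and IQD32 (0.030) were also called, which made 3 of 9 beside 11.5% of all genes lower. With array weights IQD19 (0.047) and IQD30 (0.039) joined them, and 12.3% of all genes were lower. Without nia1nia2 replicate 4 the count was 3, and the share of all genes was not counted there.

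Between nia1nia2noa1-2 and noa1-2, limma called none of the 9 IQD genes, beside 18.6% of all genes in either direction, and none had an unadjusted p under 0.05. The log2 differences ran from -0.25 for IQD30 to 0.15 for IQD22, with a median of -0.09.

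The triple mutant was also set against the sum of the separate changes, as the difference between the log2 fold change of nia1nia2noa1-2 and the sum of those of nia1nia2 and noa1-2. None of the 9 IQD genes was called in limma, beside 3.47% of all genes, and 2 had an unadjusted p under 0.05. Their median was 0.11, beside 0.08 over all genes, and its sign changed with the scaling. All 9 differences were above zero as deposited and 4 of the 9 with each array centred on its median, where the medians were -0.05 and -0.08 and the calls over all genes turned from 173 higher and 71 lower to 115 higher and 285 lower. For IQD28 the difference was 0.68 (SE 0.19, 95% interval 0.28 to 1.09, limma adjusted p = 0.059), which passed the threshold without nia1nia2 replicate 3 or without its replicate 4, where 1 IQD gene was called, and was 0.52 with the arrays centred (adjusted p = 0.12). For IQD22 it was 0.03 (SE 0.15, 95% interval -0.30 to 0.35), and -0.14 with the arrays centred. The Col-0 arrays enter this difference too, so it is not independent of the comparisons with Col-0.

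**Figure D3:**
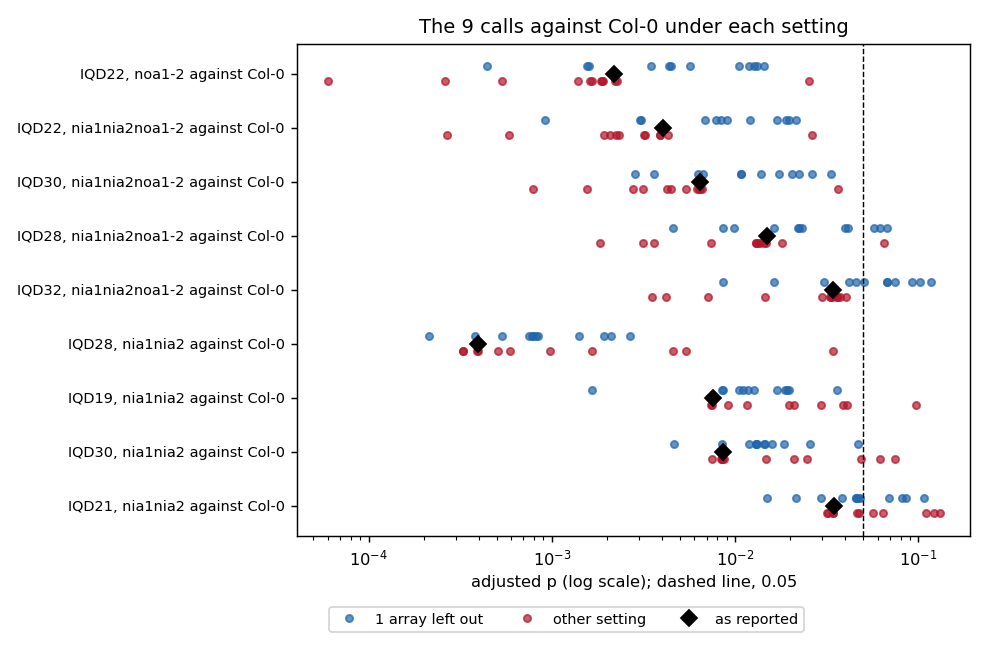
Adjusted p of the 9 calls against Col-0 on a log axis, as reported (black diamonds), with 1 array left out (blue) and under each other setting (red); the dashed line is 0.05. IQD22 and IQD30 in nia1nia2noa1-2, IQD22 in noa1-2 and IQD28 in nia1nia2 stay left of the line throughout, and IQD32 in nia1nia2noa1-2 and IQD21 in nia1nia2 cross it most often.

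The 6 genes under the floor are given as measured signals. IQD16 (AT4G10640), which recruits the microtubule-severing enzyme katanin, read 5.77, 5.82 and 4.89 in nia1nia2 and between 5.18 and 5.60 in the other genotypes. Among these genes the fit without a floor, over 13356 genes, called IQD33 (AT5G35670) and IQD18 (AT1G01110) lower in nia1nia2, beside 16.1% of all genes lower in that fit. IQD33 read 5.37, 5.72 and 5.46 in Col-0, 4.93, 5.07 and 4.69 in nia1nia2, 5.64, 5.71 and 5.44 in noa1-2 and 5.13, 4.71 and 5.37 in nia1nia2noa1-2. Its nia1nia2 arrays lay below all those of Col-0 and noa1-2, and the triple mutant overlapped nia1nia2 and reached the lowest Col-0 value. The log2 fold change was -0.62 against Col-0 (SE 0.16, limma adjusted p = 0.014) and -0.70 against noa1-2 (SE 0.16, adjusted p = 0.0068).

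IQD18 was 0.37 lower in nia1nia2 than in Col-0 on the log2 scale (log2 fold change -0.37, SE 0.12, limma adjusted p = 0.043 without the floor). IQD26 (AT3G16490) differed between nia1nia2 and noa1-2 by -0.36 (SE 0.10, adjusted p = 0.018), beside 15.5% of all genes lower in that comparison without the floor. IQD15 (AT3G49380), IQD16 and IQD27 (AT1G51960) were not called in any comparison. No IQD gene under the floor was called against Col-0 in nia1nia2noa1-2, beside 6.24% of all genes lower and 5.46% higher without the floor. Nor was any called in noa1-2, beside 2.31% of all genes lower and 2.7% higher. At these intensities the size of a difference is not exact.

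**Figure D4:**
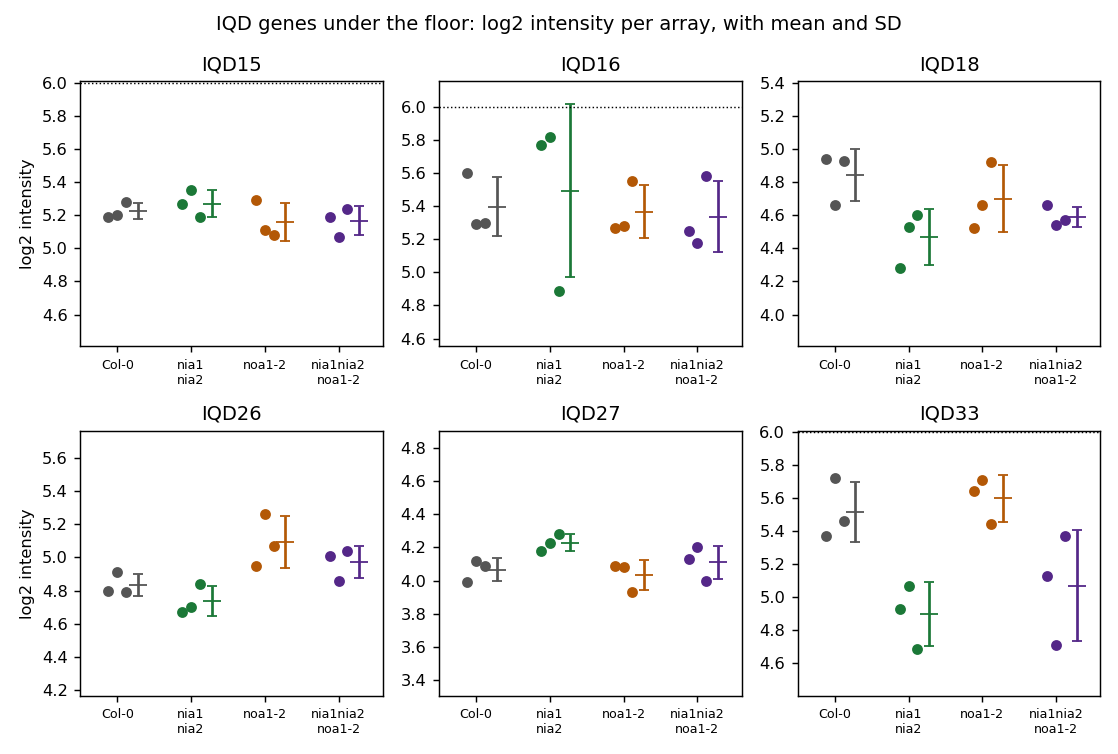
Log2 intensity of the 6 IQD genes under the floor, 1 point per array, with the mean and SD of 3 arrays, in each genotype; each panel has its own axis, and the floor of 6 is dotted where it falls in range. The IQD33 points of nia1nia2, from 4.69 to 5.07, lie below those of Col-0 and noa1-2. In IQD18 the nia1nia2 points lie below Col-0, and in IQD26 the noa1-2 points lie above Col-0 and nia1nia2. In IQD27 the nia1nia2 points lie above Col-0 and noa1-2. All genotypes overlap in IQD15 and IQD16.

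Tubulins, the subunits of the microtubules that many IQD proteins bind, were measured by 7 of the 15 genes listed. In nia1nia2, 5 of the 7 were called lower by limma and none higher, beside 26.6% of all genes lower and 16.4% higher, with a median log2 fold change of -0.67 beside -0.10 over all genes. TUB1 fell by 0.97 (SE 0.21, adjusted p = 0.0022), TUB6 by 0.86 (SE 0.13), TUB5 by 0.74 (SE 0.20), TUA6 by 0.67 (SE 0.18) and TUB7 by 0.35 (SE 0.11). In nia1nia2noa1-2, TUB1, TUB5 and TUB6 were lower, with log2 fold changes of -0.65, -0.61 and -0.50, and TUA1, an alpha-tubulin known for its expression in pollen, was higher by 0.37 (adjusted p = 0.043), beside 11.3% of all genes lower and 10.6% higher. No tubulin was called in noa1-2, beside 4.08% of all genes lower and 5% higher, and the median was -0.10 beside -0.03 over all genes. The summed intensity of the 7 ran from 8018 to 8214 in Col-0, from 4760 to 7140 in nia1nia2, from 7188 to 7613 in noa1-2 and from 6079 to 6452 in nia1nia2noa1-2. Bright probe sets weigh most in such a sum.

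**Figure D5:**
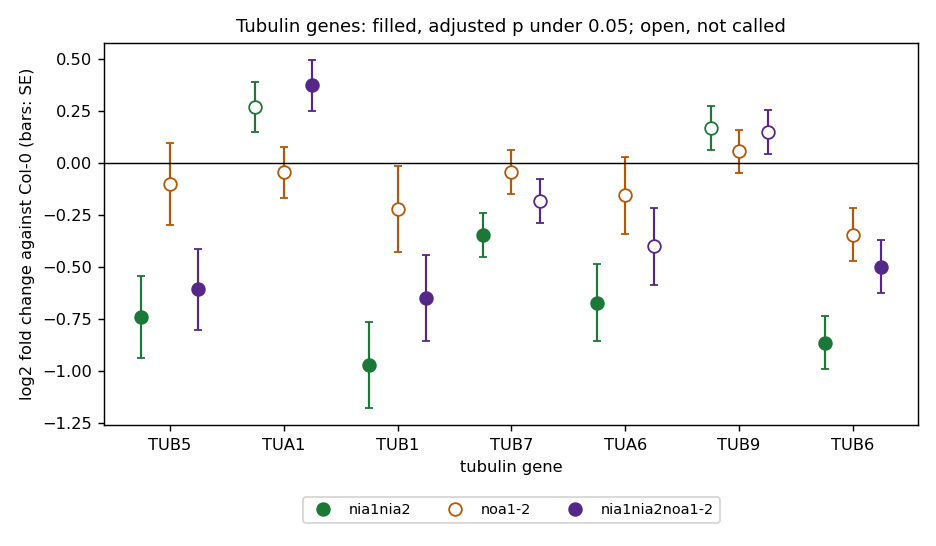
Log2 fold change against Col-0 of the 7 tubulin genes measured, with SE, in nia1nia2 (green), noa1-2 (orange) and nia1nia2noa1-2 (purple); filled points have an adjusted p under 0.05. In nia1nia2, 5 genes are filled below zero, in nia1nia2noa1-2 TUB1, TUB5 and TUB6 are filled below zero and TUA1 above it, and noa1-2 has no filled point.

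Of the calcium sensors, 7 calmodulin-like genes were named on the array and 3 were tested, CML38, CML41 and CML42. CML41 entered the test through nia1nia2 alone, where its mean was 7.16, against signals under the floor of 4.72 in Col-0, 4.77 in noa1-2 and 5.40 in nia1nia2noa1-2, so a difference of nia1nia2 from Col-0 was built into its entry and no size is given. CML38 and CML42 were not called in any mutant. None of the 9 calmodulin genes was named on the array, nor any of the 29 calcium-dependent protein kinases, the 18 cyclic nucleotide-gated channels, the 7 MAP65 proteins or the 7 listed microtubule partners of IQD proteins, so they were not analysed here.

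Some markers of dividing cells and the leaf markers tested were also called lower in nia1nia2, where 26.6% of all genes were lower. They are given beside the IQD changes. Of 22 dividing cell genes listed, 5 were tested. In nia1nia2, AUR1, the kinase aurora 1, fell by 0.62 on the log2 scale and 3xHMG-box2, a mitotic chromosome protein, fell by 0.61. AUR2, AUR3 and 3xHMG-box1 were not called there, with log2 fold changes of -0.54, -0.27 and -0.04. None of the 5 was called in noa1-2 or nia1nia2noa1-2, beside 9.08% and 21.9% of all genes called in either direction. Their median log2 fold changes there were 0.42 and 0.11, beside -0.03 over all genes in each. AUR3 entered the test through noa1-2 alone, where its mean was 6.08, against 5.77 in Col-0, 5.50 in nia1nia2 and 5.88 in nia1nia2noa1-2. A difference of noa1-2 from Col-0 was thus built into its entry, and AUR3 is part of both medians. The summed intensity of the 5, in which bright probe sets weigh most, was 914.6 to 979.4 in Col-0 and 533.3 to 825.1 in nia1nia2. It was 1082 to 1297 in noa1-2 and 897.1 to 950.5 in nia1nia2noa1-2. The leaf markers LHCB4.1 and RCA fell by 0.45 and 0.40 in nia1nia2, and neither was called in the other mutants. Their summed intensity was 26230 to 28100 in Col-0, 17610 to 23110 in nia1nia2, 24930 to 25700 in noa1-2 and 21140 to 23420 in nia1nia2noa1-2. Of 24 xylem genes IRX10 was tested and was not called. The part of these tissues in the IQD changes was not tested.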

How the data were processed

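Seedling RNA of 4 genotypes was amplified, labelled and hybridized to 12 ATH1 arrays. The authors background corrected, normalized and summarised the arrays by RMA in R, and deposited 1 linear intensity for each probe set and array. The methods name a custom chip definition, but the rows are named by Affymetrix probe set, and which definition gave them is not stated here. The labels name limma without a version. The log2 of each intensity was taken, with no pseudocount.

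Of 22810 probe sets, 13513 were listed with 1 gene and 503 with several, and 13436 of the former matched the RefSeq table used for symbols. The probe set with the highest mean stood for a gene. All 12 arrays entered 1 fit in limma 3.58.1 (R 4.3.3, 8 residual degrees of freedom) over 7034 of 13356 genes, those with a mean of at least 6 in at least 1 genotype, with Benjamini-Hochberg adjustment in each of 7 comparisons. The procedure was tested on simulated arrays in which each gene had the same spread in every genotype. The wider spread of nia1nia2 was not part of that test. The members, lists and alternatives were chosen with earlier results of these data known. The rule for named genes took every IQD gene called in a comparison with its values on each array, IQD22 and IQD30 in any case, and up to 4 called genes of each list.

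The alternatives were other floors or none, the 6 arrays compared, array weights, an intensity trend, median centring, quantile normalization applied again, the replicate number as a block, the mean over probe sets, the methods' t-test and each array left out in turn. A fit without the 3 nia1nia2 arrays was added after seeing the data. Between 1.32% and 3.98% of values were equal in a pair of replicates, far from a duplicated array. Sequences were not used here. Figures were drawn in matplotlib 3.10.9 (Python 3.11.15, numpy 2.4.6, pandas 2.3.3). The number of arrays limits the precision.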

Additional observations from a re-analysis of the deposited data

How the results depend on the processing

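Of IQD19, IQD21, IQD22, IQD28, IQD30 and IQD32, none reversed against Col-0 under any alternative run. In nia1nia2noa1-2 against Col-0 the 4 calls became 7 on the 6 arrays compared, with array weights and with the replicate block. The share of all genes called lower rose from 11.3% to 18.7%, 19.9% and 17% in these 3 settings. Without the 3 nia1nia2 arrays 7 IQD genes were called, and with 1 array left out from 2 to 7. In nia1nia2 against Col-0 the 4 became 6 of 15 genes without a floor (16.1% of all genes lower) and 2 with array weights (18.3%). The count was 1 by the methods' t-test after Benjamini-Hochberg adjustment, and ranged from 3 to 5 with 1 array left out. In noa1-2 against Col-0 the 1 became 3 on the 6 arrays compared, where 11.5% of all genes were lower. It became 5 with array weights (12.3% of all genes lower) and 2 with the replicate block (7.79%). The count was 4 by the unadjusted t-test and 3 without the nia1nia2 arrays, and ranged from 1 to 3 with 1 array left out. Between nia1nia2noa1-2 and nia1nia2 the 1 became 0 on the 6 arrays compared and by the adjusted t-test, and ranged from 1 to 2. Between nia1nia2 and noa1-2 the 2 became 4 without a floor, as 2 genes under it are added, beside 11.5% of all genes higher and 15.5% lower. The count was 1, higher in nia1nia2, on the 6 arrays compared, with array weights and with the replicate block. In these settings 12.7%, 12.9% and 17.3% of all genes were higher. It was 1 also by the adjusted t-test, and ranged from 1 to 3 with 1 array left out. Between nia1nia2noa1-2 and noa1-2 the count was 0 in each. The departure from additivity gave 0 to 1 with 1 array left out and 0 otherwise. For the t-tests, the fit without the nia1nia2 arrays and the fits with 1 array left out, the share of all genes was not counted. Those counts are therefore not read as results about the IQD genes. The cause of these shifts was not tested.

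Over single genes, 924 values kept their direction and side of the threshold, 32 lost the call, 30 gained it and 12 reversed, none of them called before or after. The departure of IQD22 became -0.14 with median centring, -0.10 with quantile normalization applied again, -0.03 without nia1nia2 replicate 2 and -0.012 without nia1nia2noa1-2 replicate 1, and reached 0.10 with 1 array left out. That of IQD32 became -0.05 with median centring, -0.026 with the replicate block and -0.0083 without nia1nia2 replicate 4, and reached 0.24 with 1 array left out. IQD21 in nia1nia2noa1-2 against nia1nia2 became -0.067 with median centring, -0.084 with the replicate block, -0.10 without nia1nia2 replicate 4 and -0.12 without nia1nia2noa1-2 replicate 3, and reached 0.17. IQD19 in nia1nia2noa1-2 against noa1-2 became 0.015 without noa1-2 replicate 3, from as low as -0.16. IQD19 has no value at a floor of 7, and the 6-array fit and the t-test give none for the departure. Deviations of same-numbered arrays correlated from -0.112 to 0.282, with 4 of 15 pairs over 0.1. Those of differently numbered arrays correlated from -0.35 to 0.36, with 10 of 39 pairs over 0.1. With so few arrays this cannot show whether replicate numbers pair the samples, and the main fit used no pairing. Median centring moved the share of calls that were higher from 38.1% to 51.3% in nia1nia2 and from 55.1% to 70.4% in noa1-2, with no IQD gene called higher than Col-0.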
